A study of Papio anubis with 25 samples.

Results

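Enzymes of conjugation, flavin-dependent oxidation and alcohol and aldehyde oxidation were followed across liver, pancreas and 3 salivary glands of the olive baboon (Papio anubis). The set held every gene of the expression table whose symbol begins with UGT1, UGT2 or UGT3, SULT, GST (classes A, K, M, O, P, T and Z), MGST, FMO, ALDH or ADH followed by a number. It came to 57 of 21287 genes: 16 UGT, 7 SULT, 8 GST, 3 MGST, 2 FMO, 17 ALDH and 4 ADH genes. Genes of these families that the table carries under one of its 4555 LOC identifiers were not analysed here.

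The tissues were liver, pancreas and the parotid, submandibular and sublingual glands of 5 animals, 4 of them female (baboons 1 to 4) and 1 male (baboon 5). Each animal gave 1 flash-frozen library per tissue, 25 in all, made from thin sections of whole tissue. The series was designed to compare glands with pancreas and pancreas with liver within animals, with starch-digesting amylase as its subject. The labels named no treatment, no genotype and no age for these animals. Values are TPM, a transcript abundance corrected for length and relative to the library total. The depth of the libraries is unknown, so the precision of every value rests on the spread over 5 animals (SD, n = 5 in each tissue).

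These enzymes clear drugs, dietary compounds, hormones and metabolic by-products. UDP-glucuronosyltransferases (UGT) attach glucuronic acid in the endoplasmic reticulum, cytosolic sulfotransferases (SULT) attach sulfate, and glutathione transferases (GST, and the membrane-bound MGST) attach glutathione to reactive compounds. Flavin monooxygenases (FMO) oxidise nitrogen and sulfur atoms, alcohol dehydrogenases (ADH) turn alcohols into aldehydes, and aldehyde dehydrogenases (ALDH) turn aldehydes into acids. The liver is the main organ of this chemistry, and several ALDH enzymes also serve the breakdown of amino acids and folate. Epithelia exposed to the outside have their own forms, among them ALDH3A1, known from the cornea, and ADH7, known from the upper digestive tract.

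The markers of each tissue were read first, because several gland libraries held other tissue. The summed level of 6 hepatocyte markers was 85673 to 101719 TPM in liver and at most 1497 TPM in any other library. That of 4 pancreatic acinar markers was at least 54982 TPM in pancreas and at most 1656 TPM elsewhere. The salivary acinar gene AQP5 was at no more than 3.90 TPM in liver, and at no more than that in the parotid libraries of baboons 2 and 5 and the sublingual libraries of baboons 2 and 4. PIP and ZG16B, listed with it as salivary markers, did not part the tissues in this way. They were at 126 to 1092 and 157 to 1813 TPM in liver. The sum of the salivary list was 2556 TPM in the liver and 814 TPM in the parotid of baboon 1. Counting a gland library as set apart where a list of non-salivary markers exceeded 10 times its highest liver or pancreas library, 7 of 15 were set apart. These were the parotid of baboon 2 and the submandibular glands of baboons 2 and 5 (adipocyte markers), the parotid of baboon 5 (lymphoid), and the sublingual glands of baboons 1 and 4 (squamous mucosa) and of baboon 2 (skeletal muscle). Markers of endothelium and fibroblasts were high in some of the same 7. The endothelial sum was 248 and 103 TPM in the parotids of baboons 2 and 5 and 206 TPM in the submandibular gland of baboon 2, against at most 8.59 TPM in liver and pancreas. The fibroblast sum was 4634 TPM in the parotid and 4311 TPM in the submandibular gland of baboon 2, against at most 82.4 TPM in liver and pancreas. In the parotid and submandibular libraries of baboons 1, 3 and 4 the 10 highest genes took 66.2% to 87.7% of all TPM, against 23.4% to 46.7% in liver and pancreas, which lowers every other gene in those libraries. In whole tissue, fewer cells of a type and less RNA per cell cannot be told apart.

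Together the 57 genes made up 5223 ± 1473 TPM in liver and 427 ± 35.5 TPM in pancreas. The parotid held 878 ± 1141 TPM of them, the submandibular gland 708 ± 679 TPM and the sublingual gland 1221 ± 860 TPM. The glands were not alike from animal to animal: single gland libraries ranged from 163 to 2874 TPM, while the pancreas ranged from 373 to 464 TPM. The lowest liver library, at 2679 TPM, lay below the highest sublingual library, at 2716 TPM, and the highest parotid library, at 2874 TPM. This order turned after TMM scaling, which divides each library by a factor that matches the bulk of its genes to the other libraries: the 3 libraries were then at 2374, 1438 and 1165 TPM.

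**Figure D1:**
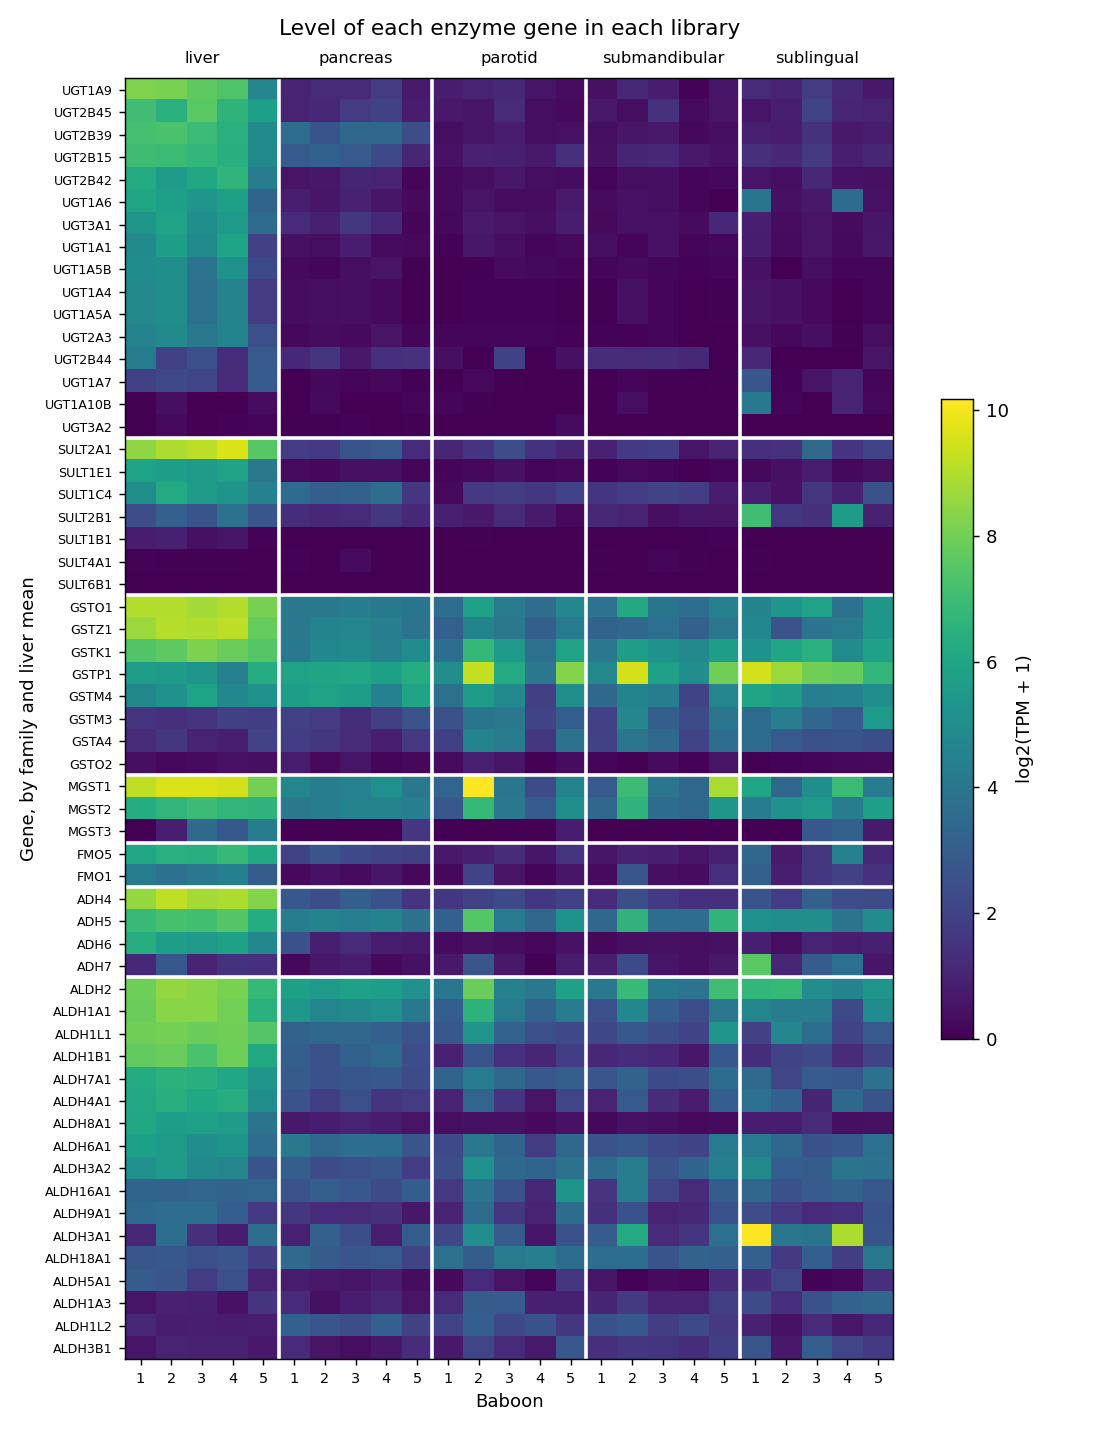
Level of the 57 enzyme genes as log2(TPM + 1) in 25 libraries, with columns grouped by tissue and ordered by animal, and rows grouped by family. The liver columns are the brightest for most genes, and the sublingual columns of baboons 1 and 4 stand out for ALDH3A1, ADH7 and SULT2B1.

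The UGT and SULT sums were the farthest below their liver means in the other tissues. The summed UGT level was 771 ± 332 TPM in liver, 21.7 ± 6.84 TPM in pancreas and 18.0 ± 16.2 TPM in sublingual gland. In parotid and submandibular gland it was 5.33 ± 2.45 and 5.16 ± 2.16 TPM, or 0.691% and 0.670% of the liver mean. The SULT sum was 571 ± 247 TPM in liver and 13.2 ± 5.68 TPM in pancreas, which at 2.31% of the liver mean was below the 2.81% of the UGT sum there, and the FMO sum was 98.5 ± 20.4 and 3.96 ± 1.18 TPM. GST genes summed to 1197 ± 240 TPM in liver and 176 ± 27.3 TPM in pancreas, which is 14.7% of the liver mean, and to 28.3%, 27.3% and 42.3% of it in parotid, submandibular and sublingual gland. These shares were the highest of the 7 families in all these tissues but the parotid, where the MGST sum stood at 37.1% of its liver mean and 1 library held 1269 TPM. After TMM scaling the parotid shares were 19.9% for MGST and 20.9% for GST. ALDH genes summed to 1214 ± 371 TPM in liver, 143 ± 29.3 TPM in pancreas and 485 ± 507 TPM in sublingual gland. In the sublingual gland the ALDH sum ran from 129 to 1336 TPM, and the highest library was that of baboon 1.

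**Figure D2:**
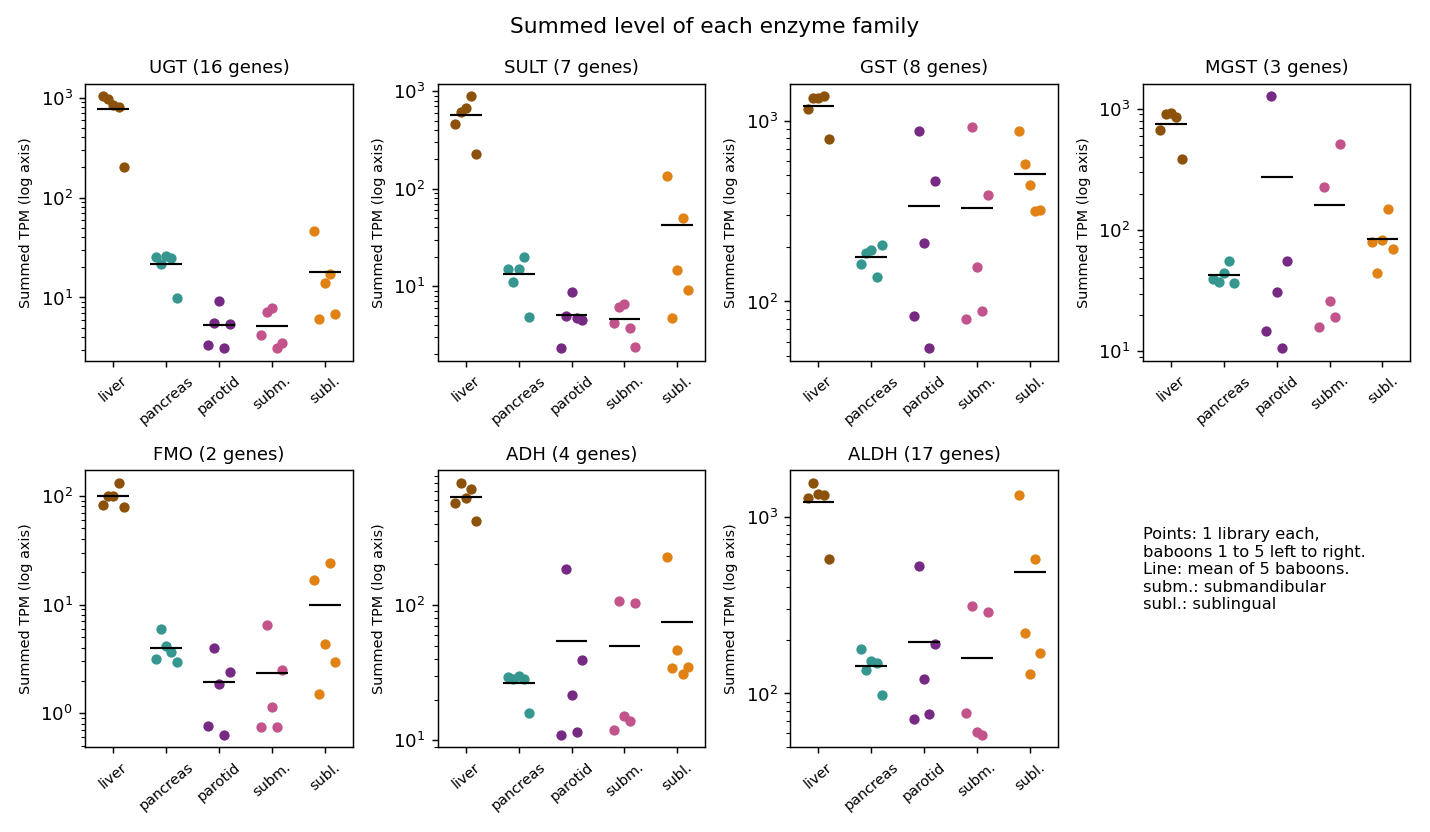
Summed TPM (log axis) of each family in each library by tissue, with 1 point per animal and a line at the mean of 5. All 5 liver libraries lie above all others for the UGT, SULT, FMO and ADH genes, and the gland points of the MGST genes run from 10.6 to 1269 TPM.

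In the limma model of log2(TPM + 1) with animal as the replicate block, 52 genes had a mean of at least 1 TPM in some tissue and were tested. Calls required a difference of 1 or more on the log2 scale and an adjusted p under 0.05. In liver against the mean of the 3 glands, 38 of the 52 were called higher, where 13.2% of all 14991 genes were, and 2 were called lower, where 5.00% were. Of the 38, 34 were higher than the animal's own gland mean in 5 of 5 animals. The median difference of the 52 was 3.43, against 0.00 for all genes. In liver against pancreas, 39 were called higher (14.6% of all genes) and 1 lower (2.86%), with a median of 3.26 against 0.44 for all genes. Both comparisons share the liver libraries. TMM scaling left 38 of the 52 higher and 5 lower against the glands, and 37 and 2 against pancreas; over all genes it moved the share of calls that were higher from 72.5% to 61.7% and from 83.7% to 61.2%. In 25 of the 57 genes every liver library exceeded each of the 20 other libraries, which held for 761 of the 14991 genes tested (5.08%). After TMM scaling it held for 28 of the 57 and for 6.04% of the 14991.

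**Figure D3:**
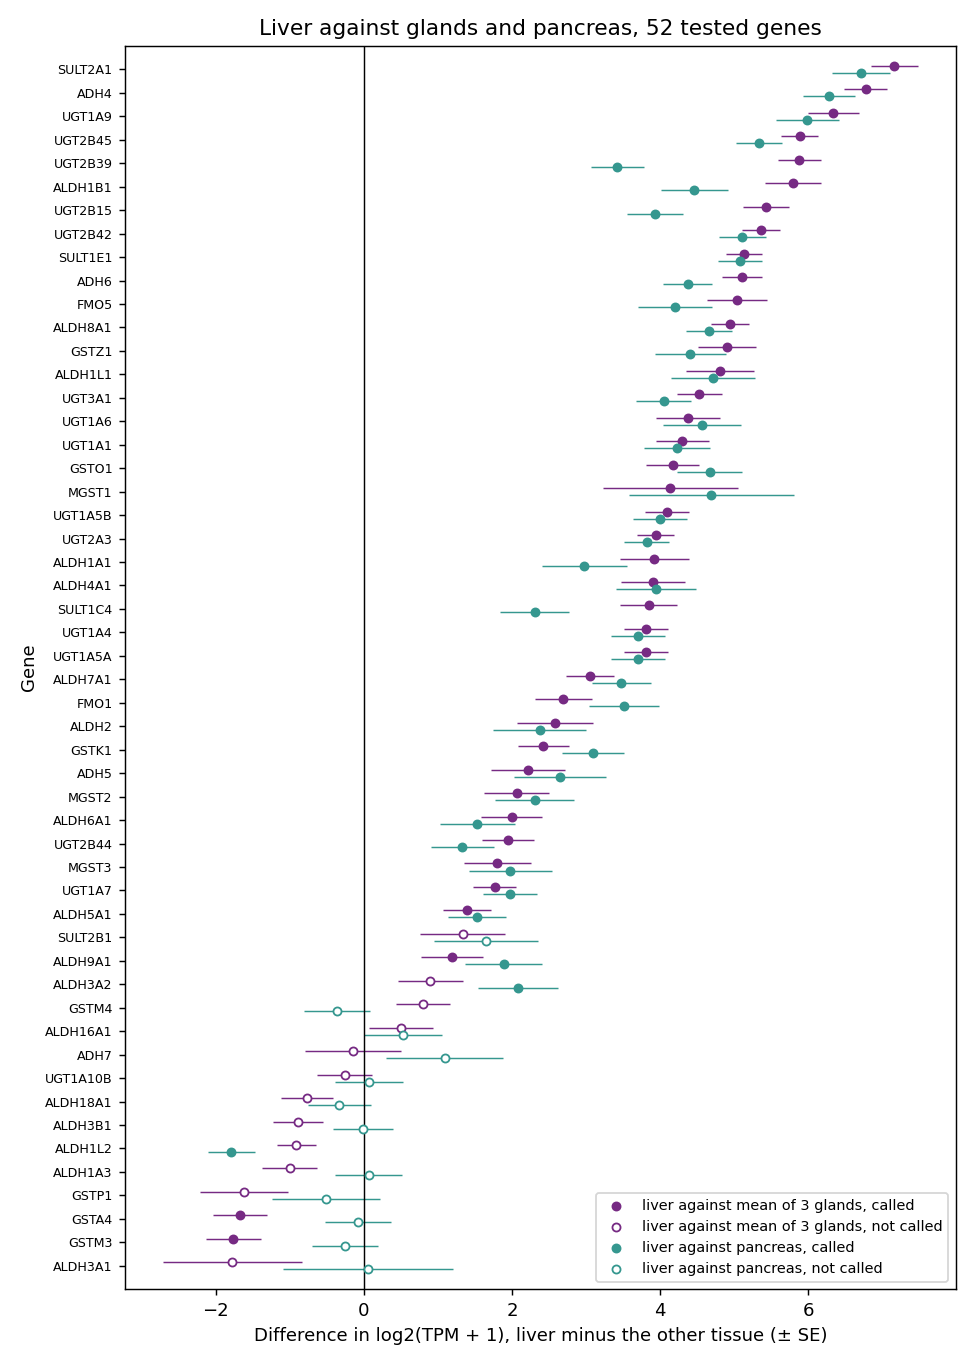
Difference in log2(TPM + 1) between liver and the mean of the glands, and between liver and pancreas, for 52 genes, with bars of 1 SE; filled points passed both thresholds. SULT2A1 and ADH4 lie farthest to the right at 7.16 and 6.77 against the glands, and the filled points to the left of 0 are GSTM3 and GSTA4 against the glands and ALDH1L2 against pancreas.

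Among the UGT genes, 14 of 15 tested were higher in liver against the glands, and the same number against pancreas. UGT1A9, which conjugates phenols and many drugs, had the highest liver mean of the family, at 291, 276, 201, 164 and 24.1 TPM in the livers of baboons 1 to 5. No library of another tissue exceeded 2.54 TPM, so the groups did not overlap even with the low liver of baboon 5. The difference from the glands was 6.34 (SE 0.35, limma adjusted p = 3.18e-13). UGT1A1, the enzyme that conjugates bilirubin, was at 28.4, 49.1, 28.2, 59.2 and 3.00 TPM in liver and at no more than 0.740 TPM elsewhere (difference from the glands 4.30, SE 0.36, adjusted p = 1.08e-09). UGT1A6, which acts on small planar phenols, was at 64.4, 52.4, 38.6, 53.7 and 8.65 TPM in liver. Outside the liver it was at most 0.917 TPM except in the sublingual glands of baboons 1 and 4, where it reached 14.4 and 10.6 TPM, above the liver of baboon 5. After TMM scaling only that of baboon 4 lay above this liver, at 9.22 against 7.67 TPM.

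The genes of the UGT1A locus share their last exons, so the division of reads among them is uncertain. In the RefSeq annotation, 8 UGT1A members end at the same coordinate, and UGT1A4 and UGT1A5A held identical values in all 25 libraries. UGT1A5B was at 29.5, 33.0, 13.8, 36.9 and 3.87 TPM in liver and at no more than 0.456 TPM elsewhere. UGT1A10B was the exception of the locus: it was listed at 0 in 3 livers, at no more than 0.335 TPM in the others, and at 16.5 TPM in the sublingual gland of baboon 1. Its difference between liver and glands was -0.26 (SE 0.37, adjusted p = 0.684).

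The UGT2B enzymes, which conjugate steroids and bile acids among other substrates, split by how much of them the pancreas held. UGT2B45 was at 131, 87.8, 189.9, 98.3 and 53.2 TPM in liver and 1.72 ± 0.993 TPM in pancreas. UGT2B42 was at 76.2, 47.6, 68.5, 101 and 18.9 TPM in liver and 0.655 ± 0.419 TPM in pancreas. Both were thus at under 2% of the liver mean in pancreas (1.53% and 1.05%). UGT2B39 was at 145, 152, 121, 86.5 and 27.3 TPM in liver but at 11.5, 5.21, 9.42, 9.77 and 4.50 TPM in pancreas. None of its 15 gland libraries exceeded 1.81 TPM, so all pancreas libraries lay above all gland libraries. UGT2B15, an androgen-conjugating enzyme in human, was at 129, 121, 104, 85.1 and 28.6 TPM in liver, at 6.81, 8.04, 6.26, 3.73 and 1.13 TPM in pancreas, and at no more than 2.20 TPM in any gland library. For UGT2B15 the lowest pancreas library, that of baboon 5, lay within the range of the glands.

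UGT2B39 and UGT2B15 were the UGT genes that differed between the glands and pancreas. UGT2B39 was lower in the glands by a difference of -2.46 (SE 0.29, adjusted p = 2.12e-06) and UGT2B15 by -1.50 (SE 0.31, adjusted p = 0.00301), each in 5 of 5 animals. UGT2B44 was low everywhere: 18.0, 2.97, 4.55, 1.55 and 6.22 TPM in liver, with the gland libraries between 0 and 2.88 TPM. UGT3A1, which transfers N-acetylglucosamine in place of glucuronic acid, was at 40.4, 56.5, 33.0, 43.6 and 10.7 TPM in liver and at no more than 2.11 TPM elsewhere. Of the rest, UGT2A3 had its highest mean in liver at 18.9 TPM and UGT1A7 at 3.59 TPM, and UGT3A2 was under 1 TPM in every library.

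Among the sulfotransferases, 3 of 4 tested were higher in liver in both comparisons. SULT2A1, which sulfates dehydroepiandrosterone and bile acids, took 83.3% of the family's mean in liver, at 359.9, 482, 571, 779.6 and 184 TPM. Its highest value elsewhere was 10.4 TPM, in the sublingual gland of baboon 3, and its difference from the glands was the largest of the set at 7.16 (SE 0.32, adjusted p = 8.83e-15). SULT1E1, the estrogen sulfotransferase, was at 59.7, 51.6, 43.3, 57.6 and 15.2 TPM in liver and at no more than 0.713 TPM elsewhere. For both genes the lowest liver library lay far above every other library. SULT1C4 had a higher mean in pancreas than SULT2A1 and SULT1E1 (7.93 against 3.47 and 0.259 TPM). Its pancreas libraries held 10.8, 7.56, 7.88, 11.4 and 2.07 TPM, against 32.7, 72.6, 47.0, 37.0 and 21.1 TPM in liver. It was lower in the glands than in pancreas by -1.54 (SE 0.38, adjusted p = 0.013) and was so in 4 of 5 animals.

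SULT2B1, which sulfates cholesterol and is known from the epidermis, followed another pattern. It was at 4.32, 7.81, 5.23, 13.0 and 5.60 TPM in liver, at 1.17 to 2.12 TPM in pancreas and at no more than 1.39 TPM in parotid and submandibular gland. In the sublingual gland it was at 131, 2.18, 1.57, 46.8 and 0.927 TPM, so that baboons 1 and 4 lay above every liver library and the other 3 below. SULT1B1, SULT4A1 and SULT6B1 did not reach 1 TPM in any library.

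The glutathione transferases were the family with the most varied tissue pattern: 3 of 7 tested were higher in liver than in the glands and 2 were lower. GSTO1, a thiol transferase, was at 508, 518, 438, 507 and 271 TPM in liver, 14.7 to 18.5 TPM in pancreas and at most 69.7 TPM in the glands (difference from the glands 4.17, SE 0.36, adjusted p = 1.88e-09). GSTZ1, which isomerises maleylacetoacetate in tyrosine breakdown, was at 405, 532, 503, 574 and 218 TPM in liver and at most 40.4 TPM elsewhere (4.90, SE 0.39, adjusted p = 3.7e-10). In both, all livers lay above all other libraries. GSTK1, found in mitochondria and peroxisomes, was at 168, 199, 289, 231 and 181 TPM in liver and spread from 11.8 to 109 TPM over the gland libraries. After TMM scaling the ratio of its highest to its lowest gland library was 3.95 in place of 9.30.

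GSTP1, the pi-class enzyme common in epithelia outside the liver, had the opposite order. It was at 50.4, 48.6, 38.8, 21.3 and 78.2 TPM in liver and at 57.5, 60.0, 66.8, 54.5 and 77.8 TPM in pancreas. The parotid libraries held 31.5, 608, 74.5, 15.4 and 314 TPM and the submandibular libraries 26.6, 728, 55.8, 31.1 and 251 TPM. The sublingual libraries held 708, 397, 247, 222 and 103 TPM, all above the highest liver library, although after TMM scaling that of baboon 5, at 67.3 TPM, was below the liver of baboon 5 at 69.3 TPM. In parotid and submandibular gland the high libraries were those of baboons 2 and 5, which were set apart by other cell types, and the remaining 3 overlapped the liver range. The liver minus gland difference was -1.62 (SE 0.60, adjusted p = 0.0586) and was lower in 5 of 5 animals, so it missed the threshold. It passed under TMM scaling (-1.80, adjusted p = 0.00111), and without the 7 libraries set apart it was -0.34 (adjusted p = 0.378). The part of other cell types in the GSTP1 level was not tested.

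GSTM3 and GSTA4 were the 2 genes called lower in liver than in the glands; they are named because of this count, after their values were seen. GSTM3, a mu-class enzyme, was at 1.99, 1.69, 1.97, 2.77 and 2.61 TPM in liver and at 3.04 to 43.8 TPM in the gland libraries, with no overlap. Its difference was -1.76 (SE 0.37, adjusted p = 0.000956). GSTA4, which conjugates the lipid peroxidation product 4-hydroxynonenal, was at 1.37, 2.16, 1.04, 0.809 and 3.12 TPM in liver and at 2.16 to 23.3 TPM in the glands, so the lowest gland libraries overlapped the highest livers (-1.67, SE 0.37, adjusted p = 0.00157). After TMM scaling the groups did not overlap, with livers up to 2.77 and glands from 2.93 TPM. Both were also higher in the glands than in pancreas, by 1.50 and 1.59, in 5 of 5 animals. GSTM4, another mu-class gene, was at 50.0, 56.5, 51.3, 21.2 and 60.6 TPM in pancreas and at 26.0, 36.0, 58.5, 26.1 and 36.6 TPM in liver, ranges that overlapped. Its liver minus pancreas difference was -0.36 (SE 0.45, adjusted p = 0.663) and its gland minus pancreas difference was -1.15 (adjusted p = 0.0588). TMM scaling moved the pancreas mean from 131% to 209% of the liver mean, and both differences were then called, at -1.02 (adjusted p = 0.0498) and -1.65 (adjusted p = 0.00062). GSTO2 was under 1 TPM in every library.

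All 3 membrane-bound MGST genes were higher in liver in both comparisons. MGST1, which protects the endoplasmic reticulum and the outer mitochondrial membrane, was at 595, 794, 786, 739.8 and 267 TPM in liver and at 24.3, 19.0, 21.7, 33.4 and 15.2 TPM in pancreas. In parotid it was at 8.89, 1157, 15.1, 3.96 and 23.4 TPM, in submandibular gland at 6.32, 127, 15.1, 9.58 and 471 TPM, and in sublingual gland at 62.0, 9.82, 32.8, 122 and 16.6 TPM. The parotid of baboon 2 thus exceeded every liver and the submandibular gland of baboon 5 exceeded 1 liver. After TMM scaling the parotid of baboon 2, at 469 TPM, exceeded only the livers of baboons 1 and 5 (464 and 236 TPM). The submandibular gland of baboon 5, at 415 TPM, still exceeded the liver of that animal. These 2 gland libraries had the highest adipocyte marker sums, 4848 and 1156 TPM, where no other library exceeded 343 TPM. The submandibular gland of baboon 2, nearly as high in fibroblast and endothelial markers as the parotid of the same animal, held 127 TPM of MGST1. The part of these cell types in the MGST1 level was not tested. The difference from the glands was 4.14 (SE 0.91, adjusted p = 0.00159), and 5.57 without the 7 libraries set apart.

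MGST2, which can also make leukotriene C4, was at 78.9, 102, 126, 103 and 97.4 TPM in liver, at 15.6 to 22.4 TPM in pancreas and at 5.79 to 111 TPM in the glands. Its highest gland libraries were the parotid and submandibular gland of baboon 2 (111 and 98.6 TPM), within the liver range. After TMM scaling they were at 45.2 and 37.5 TPM, and every liver, from 61.6 TPM up, lay above every gland library. MGST3 had its highest mean in liver at 7.23 TPM but was listed at 0 in 1 liver and in most other libraries.

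Both flavin monooxygenases were higher in liver. FMO5 was the larger, at 65.8, 86.0, 84.3, 111 and 72.6 TPM in liver and 2.82 to 5.49 TPM in pancreas. It did not exceed 1.87 TPM in parotid and submandibular gland, but was at 9.17, 0.685, 2.17, 21.2 and 1.24 TPM in sublingual gland. The sublingual glands of baboons 1 and 4 were again the high ones, yet below every liver (difference from the glands 5.04, SE 0.41, adjusted p = 5.62e-10). FMO1 was at 16.9, 13.0, 15.8, 19.9 and 6.90 TPM in liver and at 7.79, 0.816, 2.14, 3.02 and 1.73 TPM in sublingual gland, so the highest sublingual library passed the lowest liver (2.70, SE 0.39, adjusted p = 8.47e-06). After TMM scaling it lay below it, at 4.12 against 6.12 TPM.

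Of the 4 alcohol dehydrogenases, 3 were higher in liver in both comparisons. ADH4, which oxidises ethanol and retinol, was at 377, 597, 442, 491 and 315 TPM in liver and at most 7.58 TPM elsewhere. Its differences of 6.77 from the glands (SE 0.28, adjusted p = 5.34e-15) and 6.28 from pancreas were the second largest of the set. ADH6 was at 80.9, 50.0, 43.7, 55.3 and 25.9 TPM in liver, and its highest value elsewhere was 4.86 TPM in the pancreas of baboon 1. ADH5, the formaldehyde-clearing enzyme that most tissues express, was at 113, 147, 134, 175 and 77.0 TPM in liver, at 13.0 to 22.7 TPM in pancreas and at 7.99 to 178 TPM in the glands. The parotid of baboon 2 held the 178 TPM, above every liver, and TMM scaling narrowed the ratio of highest to lowest gland library from 22.2 to 7.28. That library was then at 72.0 TPM, above the liver of baboon 5 (68.3 TPM) and below the other 4. The submandibular gland of baboon 5 was then the highest gland library, at 88.6 TPM, above the livers of baboons 1 (88.5 TPM) and 5. Before scaling, the submandibular glands of baboons 2 and 5, at 98.4 and 101 TPM, also exceeded the liver of baboon 5. ADH7 was the member of this family that was not called in either liver comparison. It was at 1.22, 5.77, 1.04, 1.81 and 1.57 TPM in liver, at a mean of 0.397 TPM in pancreas (1.09 higher in liver, SE 0.79, adjusted p = 0.396, in 5 of 5 animals), and at 188, 1.15, 6.64, 12.0 and 0.522 TPM in the sublingual gland.

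Of the 17 aldehyde dehydrogenases, 10 were higher in liver than in the glands, none was called lower, and 7 were not called. ALDH2, the mitochondrial enzyme that clears acetaldehyde, was at 244, 367, 328, 281 and 112 TPM in liver, at 34.8 to 55.9 TPM in pancreas and at 13.5 to 229 TPM in the glands. The liver of baboon 5 lay within the gland range, whose top was the parotid of baboon 2 (2.58, SE 0.51, adjusted p = 0.000554). After TMM scaling it still lay within that range, whose top was then the sublingual gland of baboon 2 at 135 TPM. ALDH1A1, which makes retinoic acid, was at 227, 329.5, 332, 260.2 and 88.4 TPM in liver and at 3.81 to 94.4 TPM in the glands (3.92, SE 0.46, adjusted p = 4.71e-07). Its only overlap was again between the liver of baboon 5 and the parotid of baboon 2, and after TMM scaling these were at 78.3 and 38.3 TPM and did not overlap.

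ALDH1B1, a mitochondrial relative of ALDH2, was far more restricted. It was at 214, 229, 154, 242 and 71.2 TPM in liver, at 7.52, 4.79, 7.99, 10.1 and 4.25 TPM in pancreas and at 0.586 to 5.93 TPM in the glands (5.79, SE 0.37, adjusted p = 6.98e-12). It was also lower in the glands than in pancreas, by -1.33 (SE 0.37, adjusted p = 0.0305) in 5 of 5 animals. ALDH1L1, the cytosolic folate enzyme that oxidises 10-formyltetrahydrofolate, was at 250.1, 266, 236, 251 and 175 TPM in liver and at most 38.5 TPM elsewhere (4.81, SE 0.46, adjusted p = 1.37e-08). Its mitochondrial counterpart ALDH1L2, named because it was the single gene called lower in liver than in pancreas, had the reverse pattern: 1.28, 0.731, 0.795, 0.755 and 0.792 TPM in liver and 7.70, 5.68, 4.51, 7.69 and 2.95 TPM in pancreas. The groups did not overlap, and the difference was -1.79 (SE 0.32, adjusted p = 0.000171).

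Among the ALDH genes that serve amino acid breakdown, 3 had no liver library that overlapped any other. ALDH4A1, of proline breakdown, was at 70.4, 82.5, 68.2, 79.9 and 31.6 TPM in liver and at most 12.2 TPM elsewhere. ALDH7A1, of lysine breakdown, was at 76.4, 91.6, 84.7, 68.3 and 39.1 TPM and at most 17.2 TPM elsewhere. ALDH8A1, of tryptophan breakdown, was at 66.1, 51.8, 56.4, 46.9 and 13.9 TPM and at most 1.29 TPM elsewhere. ALDH6A1, of valine breakdown, was called higher in both comparisons, with means of 35.6 TPM in liver, 8.46 TPM in the glands and 10.9 TPM in pancreas. It was higher than the gland mean in 4 of 5 animals, and its call against pancreas was lost under 6 of 14 alternatives (adjusted p up to 0.123), among them TMM scaling and the fits without baboon 1, 2, 3 or 4. ALDH5A1 was called too, at a liver mean of 4.01 TPM. ALDH9A1, at 8.63 TPM in liver and 3.63 TPM in the glands, was called against the glands at an adjusted p of 0.0471, in 4 of 5 animals, and lost that call under 8 of 14 alternatives (adjusted p up to 0.298), among them the fits without baboon 1, 2, 3 or 4. ALDH3A2 was called against pancreas only, with means of 27.2 TPM in liver, 13.5 TPM in the glands and 4.81 TPM in pancreas. ALDH18A1, which works in the opposite direction by making proline, had its highest mean in parotid at 13.3 TPM and was not called in either liver comparison, and neither were ALDH16A1 (parotid, 11.9 TPM), ALDH1A3 (sublingual gland, 5.71 TPM) and ALDH3B1 (sublingual gland, 3.82 TPM).

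ALDH3A1 reached the highest level of any ALDH gene in a single library, and it did so outside the liver. It was at 1.22, 11.7, 1.59, 0.733 and 11.7 TPM in liver and at 0.803 to 7.72 TPM in pancreas. It was at 3.58, 30.8, 6.36, 0.507 and 4.91 TPM in parotid and at 6.84, 74.1, 1.33, 1.88 and 12.3 TPM in submandibular gland. The sublingual libraries of baboons 1 to 5 held 1099.8, 15.2, 14.7, 482 and 5.25 TPM. Baboons 1 and 4 thus stood far above the other 3, and the mean of 323 ± 479 TPM describes none of the 5. The difference between liver and glands was -1.78 (SE 0.94, adjusted p = 0.201), and it was not called.

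The 2 sublingual libraries high in ALDH3A1 were those high in squamous mucosa markers. The sum of KRT13, KRT4, KRT5 and CRNN was 80108 TPM in baboon 1 and 19824 TPM in baboon 4, and at most 361 TPM in the other 3 sublingual libraries. KRT13 alone was at 50365 and 12518 TPM. ALDH3A1, ADH7, SULT2B1, UGT1A6 and FMO5 were each highest among the sublingual libraries in these 2 animals, and UGT1A10B was so too, at 16.5 and 0.976 TPM. So were other members, among them MGST1 (62.0 and 122 TPM, against at most 32.8 TPM), FMO1, UGT1A7, ALDH3A2, ALDH4A1 and ALDH16A1. After TMM scaling this no longer held for ALDH4A1 and ALDH16A1. ALDH4A1 was then at 6.47 and 8.53 TPM in baboons 1 and 4 and at 9.69 TPM in baboon 2. ALDH16A1 was at 4.90 TPM in baboon 1 and at 6.01 TPM in baboon 2. All the genes named here were picked out after their values were seen, and the part of mucosa in their level was not tested. Without these 2 libraries the sublingual minus parotid and submandibular difference of ALDH3A1 was -0.092 in place of 3.04, that of SULT2B1 0.66 in place of 2.57 and that of ADH7 0.34 in place of 2.21. None of the 6 values was called. The squamous marker sum also reached 448 TPM in the pancreas of baboon 2. It was 425 and 250 TPM in the livers of baboons 2 and 5, each with ALDH3A1 at 11.7 TPM, and at most 48.0 TPM in the other livers. The part of mucosa in those ALDH3A1 values was not tested.

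**Figure D4:**
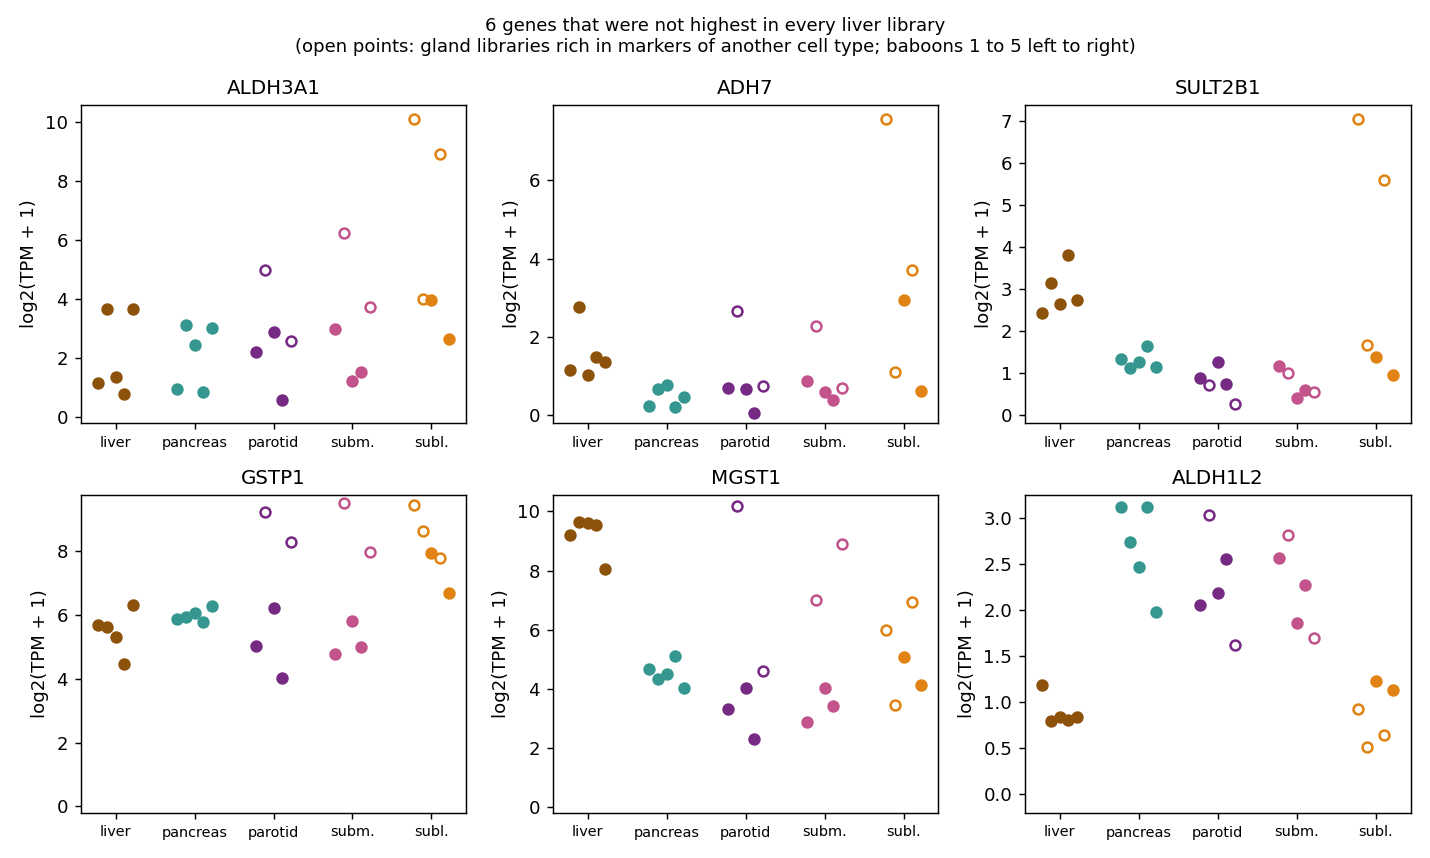
Level of ALDH3A1, ADH7, SULT2B1, GSTP1, MGST1 and ALDH1L2 as log2(TPM + 1) in each library, with baboons 1 to 5 from left to right within a tissue. Open points are the 7 gland libraries set apart by markers of other cell types; the highest points of ALDH3A1, ADH7 and SULT2B1 are the sublingual libraries of baboons 1 and 4, and the highest of MGST1 is the parotid of baboon 2.

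Between the glands and pancreas, 6 of the 52 genes were called. In the mean of the 3 glands against pancreas, 2 of 52 were called higher (GSTM3 and GSTA4), where 3.28% of all genes were, and 4 lower (UGT2B39, SULT1C4, UGT2B15 and ALDH1B1), where 3.16% were. The median difference was -0.07 for the 52 genes and 0.43 for all genes. Without the 7 libraries set apart, 11 were called, 3 higher and 8 lower, where 786 and 805 of the 14991 genes were. The 5 genes ALDH1A1, ALDH1A3, ALDH2, FMO5 and GSTM4 were among those 11 and not among the 6, and ALDH1A3 was the one called higher. With TMM scaling 2 were higher and 8 lower, where 540 and 939 of the 14991 genes were. Without baboon 3, UGT2B39 was the single gene of the set called, where 111 of 15065 genes were called higher and 346 lower.

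The sublingual gland against the mean of the other glands gave 1 call. ALDH1L2 was lower, at 0.895, 0.425, 1.34, 0.563 and 1.19 TPM against 2.08 to 7.20 TPM in parotid and submandibular gland, with no overlap (-1.38, SE 0.28, adjusted p = 0.0237). After TMM scaling the parotid of baboon 5, at 0.791 TPM, lay below the sublingual gland of baboon 3, at 0.999 TPM. The call was lost without baboon 1, 3 or 4. Without baboon 2 there were 12 calls, 11 of them higher, where 2472 of 14718 genes were called higher and 51 lower. None of the 52 genes was called higher, where 0.567% of all genes were, and 1 was lower, where 0.0534% of all genes were. At an unadjusted limma p under 0.05 there were 15 of the 52. The share of all genes at that threshold was not computed, so this count does not set the 52 apart from other genes. The median difference was 0.43 for the 52 genes and 0.30 for all genes. Without the 7 libraries set apart, 21 were called higher, as were 5527 of the 14991 genes, and ALDH1L2 was not called (-0.70, adjusted p = 0.0778). That fit compares the sublingual glands of baboons 3 and 5, where the 10 highest genes took 32.6% and 43.5% of all TPM, with parotid and submandibular libraries where they took 66.2% to 87.7%; the part of this imbalance in the 21 calls was not tested.

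The level outside liver was set beside that of 6 hepatocyte markers, which stood at 0.468% to 1.37% of their liver mean in the glands and at 0.678% to 3.24% in pancreas. The highest marker in the glands was SERPINA1. It was at 241 and 367 TPM in the sublingual glands of baboons 1 and 4 and at most 146 TPM in the other gland libraries. In pancreas the highest was TTR, at 146 to 472 TPM. The lowest class below rests on that 1 marker in each tissue. Of the 32 genes of the set with a liver mean of at least 20 TPM, 14 lay in the glands at or below the highest marker, among them SULT2A1 (0.513%), UGT1A9 (0.466%), ADH4 (0.729%) and SULT1E1 (0.470%). Of these, ADH4 lay below SERPINA1 but above the other markers. A further 8 lay above it and up to 10%, and 10 lay over 10%: GSTP1 at 536%, GSTM4 at 69.2%, ALDH3A2 at 49.7%, MGST2 at 33.4%, ADH5 at 31.9%, ALDH6A1 at 23.8%, ALDH2 at 23.6%, MGST1 at 21.8% (10.4% without the parotid of baboon 2), GSTK1 at 21.4% and ALDH7A1 at 11.3%. In pancreas the same 3 classes held 11, 11 and 10 genes. UGT2B39 at 7.60% and UGT2B15 at 5.55% lay above every hepatocyte marker in pancreas and below the highest in the glands (0.570% and 1.08%).

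**Figure D5:**
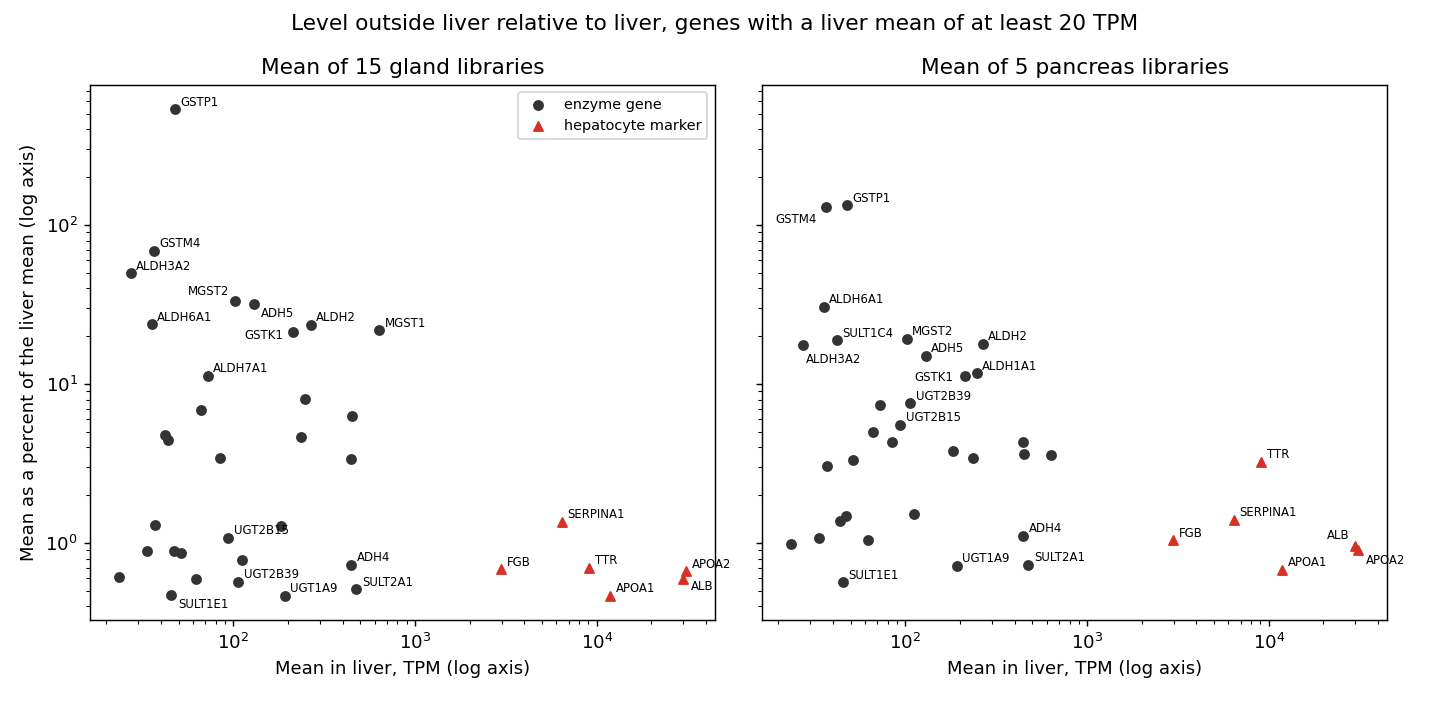
Mean level in the glands (left) and in pancreas (right) as a percent of the liver mean, against the liver mean in TPM (both axes log), for 32 enzyme genes and 6 hepatocyte markers. SULT2A1, UGT1A9 and ADH4 lie level with the markers in both panels, and GSTP1 lies above 100% in both.

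The liver of baboon 5, the only male, was the lowest of the 5 for most of these enzymes. Of 48 genes of the set with a liver mean of at least 1 TPM, it was lowest in 34 (70.8%), while it was lowest in 43.2% of 11796 genes with that mean. The median ratio of its level to the mean of the other 4 livers was 0.420 for the set and 0.818 for all genes. The UGT1A gene UGT1A1 had the lowest ratio, at 0.0727, and UGT1A9 was at 0.103, ALDH3A2 at 0.158 and UGT1A6 at 0.165. UGT1A7 went the other way, at 6.57 TPM against 1.38 to 3.73 TPM in the other livers. UGT2B39 was at 0.217, ALDH8A1 at 0.251, SULT1E1 at 0.287 and SULT2A1 at 0.335. FMO5 at 0.837, GSTK1 at 0.817 and MGST2 at 0.948 were close to the other livers, and GSTP1 at 1.96 was above them. The hepatocyte markers moved both ways in that library: ALB was at 14278 TPM against 31060 to 38464 TPM, and APOA2 at 47909 TPM against 24316 to 28915 TPM. ALB, TTR, SERPINA1 and FGB were below all other livers, with ratios of 0.421, 0.759, 0.550 and 0.285. APOA1 and APOA2 were above all of them, at 1.49 and 1.78. With 1 male, sex and the individual animal cannot be told apart, and no test was made.

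Genes that supply or accompany these enzymes were read from 4 lists with 38 genes, of which 34 were in the table. Over all genes, the shares to set beside the 4 lists were 13.2% higher and 5.00% lower in liver against the glands, and 14.6% and 2.86% against pancreas. Of 8 cofactor genes, 2 were higher in liver than in the glands, 1 lower and 5 not called, with a median difference of 1.06. Against pancreas, 5 of the 8 were higher in liver, 1 lower and 2 not called, with a median of 1.33. UGP2, which makes UDP-glucose for the glucuronidation pathway, was higher in liver than in the glands (124 ± 22.4 TPM in liver, difference 2.36, adjusted p = 0.000768). PAPSS1, which makes the sulfate donor of the sulfotransferases, was lower (1.06 ± 0.141 TPM in liver and 8.61 ± 3.08 TPM in pancreas, difference from the glands -1.66, adjusted p = 0.00961). PAPSS2, the other listed gene for that donor, was at 8.78 to 20.9 TPM in liver and 2.23 to 7.22 TPM in pancreas. Its gland libraries ran from 0.325 to 42.5 TPM. GSS, of glutathione synthesis, was higher in the glands than in pancreas (1.28, adjusted p = 0.0133). Of 8 other conjugating enzymes, 7 were higher in liver than in the glands, led by the glycine conjugation gene GLYAT (360 ± 85.3 TPM in liver, 6.70, adjusted p = 5.33e-15) and by BAAT, which conjugates bile acids (5.79, adjusted p = 9.42e-15).

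Of 8 other oxidising and hydrolysing enzymes, 7 were higher in liver than in the glands, among them the epoxide hydrolase genes EPHX1 (1017 ± 289 TPM in liver, 3.91, adjusted p = 6.36e-09) and EPHX2 (4.89, adjusted p = 2.1e-12), and NQO1 was not called (-0.84, adjusted p = 0.303). XDH, of purine breakdown, was lower in the glands than in pancreas (-3.07, adjusted p = 5.35e-08). Of 10 regulators, 7 were higher in liver than in the glands and 8 against pancreas, where 13.2% and 14.6% of all genes were. The drug-sensing receptor genes NR1I3 (102 ± 14.4 TPM in liver, 5.38, adjusted p = 1.09e-13) and NR1I2 (28.9 ± 10.7 TPM, 4.44, adjusted p = 3.2e-13) were among them.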

How the data were processed

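Deposited values were TPM per gene for 25 libraries, which the authors made with kallisto, per the name of the deposited table; its version, index and genome build are not given in the sources used here. Per the labels' protocols, RNA from tissue sections was DNase-treated and sequenced as paired reads. No library was left out. Further libraries of the series were not analysed here. The 14991 of 21287 genes averaging 1 TPM or more in some tissue entered limma 3.58.1 (R 4.3.3) on log2(TPM + 1), a scale that understates the change of low genes, with tissue and animal as terms, eBayes with a trend and Benjamini-Hochberg adjustment within each comparison; every adjusted p in the text is from this model. Animal numbers pair the tissues, per the series' design; deviations from the tissue means correlated at 0.161 on average within an animal and at -0.035 between animals. Named members had the first or second highest mean of their family in a tissue, or were called with a difference of at least 3 and averaged 20 TPM or more in the higher tissue; others are named to account for a count. Members and lists were chosen with earlier results of these data known. Family sums are plain sums of TPM (Python 3.11.15, pandas 2.3.3). The RefSeq gene table of Panubis1.0 served for names only, and all 57 members matched it. Alternatives were no block, the compared tissues alone, TMM and median-of-ratios scaling, a pseudocount of 0.1, no filter, a minimum of 5 TPM and each animal left out. Values of 1 listed regulator are not reported here.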

Additional observations from a re-analysis of the deposited data

Results flagged for a closer look

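In groups of 5 libraries, a value was singled out where its gap to the nearest other value took more than 0.71 of the whole range (Dixon's criterion). This held for 35 of 215 groups made of the 36 named genes and the 7 family sums in each tissue, where chance gives about 1 in 20 for independent groups. The genes were named by their own levels and the groups share libraries, so the 35 cannot be judged against that rate. Low values of the liver of baboon 5 made up 13 of the 35. They were the UGT sum at 201 TPM (other livers 799 to 1031), the ALDH sum at 578 TPM, UGT1A1 at 3.00, UGT1A6 at 8.65, UGT1A9 at 24.1, UGT2B15 at 28.6, SULT1E1 at 15.2, GSTO1 at 271, MGST1 at 267, ALDH1A1 at 88.4, ALDH1L1 at 175, ALDH4A1 at 31.6 and ALDH8A1 at 13.9 TPM. The pancreas of the same animal was low in the UGT sum (9.85 TPM), the ADH sum (16.0 TPM) and SULT1C4 (2.07 TPM). The liver of baboon 2 was high in ADH7 (5.77 TPM).

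In the glands, the sublingual library of baboon 1 was high in UGT1A10B (16.5 TPM) and the ADH sum (228 TPM). That of baboon 4 was low in ADH5 (14.0 TPM) and ALDH1A1 (3.81 TPM), and that of baboon 3 was high in UGT2B39 (1.81 TPM) and UGT2B42 (1.18 TPM). Baboon 2 was high in ADH7 in parotid (5.34 TPM) and in submandibular gland (3.87 TPM), in FMO1 in parotid (3.16 TPM) and in UGT1A10B in submandibular gland (0.307 TPM). The submandibular library of baboon 5 was high in ALDH1L1 (38.3 TPM) and listed at 0 for UGT2B44. The parotid of baboon 3 was high in UGT2B44 (2.88 TPM) and SULT1E1 (0.356 TPM). The others were low ADH6 in the submandibular gland (0.152 TPM) and SULT1C4 in the parotid (0.212 TPM) of baboon 1, high ADH6 in its pancreas (4.86 TPM) and low GSTM4 in the pancreas of baboon 4 (21.2 TPM).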

How the results depend on the processing

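Liver calls held best: 38 of the 40 against the glands and 33 of the 40 against pancreas were called under every alternative that tested them, with 39 to 45 and 34 to 42 calls in all, and every called gene kept its direction. UGT1A7 and ALDH5A1 were tested under 13 of the 14 alternatives, as they did not reach the minimum of 5 TPM. The gland against pancreas count was 6, became 10 under TMM and under median-of-ratios scaling and 11 without the gland libraries set apart by other cell types, and ranged from 1 to 6 with 1 animal left out. Over all genes, 492 higher and 474 lower calls became 540 and 939 under TMM scaling and 786 and 805 without the libraries set apart. The sublingual count of 1 became 0 with only the compared tissues fitted and without the 2 squamous-rich libraries, 2 with a pseudocount of 0.1 and at a minimum of 5 TPM, and 21 without the libraries set apart, and ranged from 0 to 12 with 1 animal left out. Higher calls over all genes in that comparison rose from 85 to 5527 without the libraries set apart. They rose to 2472 without baboon 2, the fit that gave the 12. Without the replicate block, the counts of the 4 comparisons were 39, 40, 6 and 1, and ALDH9A1 lost its call against the glands. That call was lost under 8 of 14 alternatives, and those of ALDH6A1 and UGT2B44 against pancreas under 6 each. ADH7, at -0.15 in liver against the glands, turned to 0.21 with a pseudocount of 0.1, to 0.50 without the libraries set apart and to 0.47 without the squamous-rich ones, and ran from -0.37 to 0.29 with 1 animal left out. ALDH3A1 turned from 3.04 to -0.092 in sublingual gland without the squamous-rich libraries, and GSTP1 from 1.11 to -0.17 in glands against pancreas without those set apart. Leaving out these libraries was chosen after seeing the data. TMM scaling moved the median of all genes in liver against pancreas from 0.44 to 0.03, in glands against pancreas from 0.43 to 0.09 and in the sublingual comparison from 0.30 to 0.01. Apart from the fewer libraries in some fits, the cause of these changes was not tested. Depth is unknown, so no counting error can be given for low values such as those under 1 TPM.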
